A study of Mus musculus with 12 samples.

Results

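The angiopoietin and vascular endothelial growth factor (VEGF) genes described here are 10 ligands, receptors and regulators of vessel formation, read from bulk RNA sequencing of mouse heart ventricles at embryonic day 12.5. They are Angpt1, Angpt2, Tek, Tie1, Ptprb, Vegfa, Vegfb, Vegfc, Kdr and Flt1, chosen by gene symbol, and each matched 1 Ensembl gene among the 40800 genes of the count table. The list was drawn up with the comparison between the genotypes in these same libraries known, so that comparison is given here as a description of the members and not as independent evidence. The genotypes are Wnt gain of function (Wnt GOF, 6 libraries), in which Wnt signalling is raised, and control (6 libraries). The labels do not name the allele or the Cre line behind the Wnt gain of function, what the control animals carry, or how many embryos went into a library, and they do not split right from left ventricle. P-values therefore measure the spread between libraries, which may be technical.

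The angiopoietins are secreted ligands of the endothelial receptor tyrosine kinase Tek, also called Tie2. Angpt1 activates Tek and is made in the embryonic heart mainly by the myocardium, where it acts on the neighbouring endocardium and forming vessels, while Angpt2 is made by endothelial cells and blocks or weakly activates the same receptor depending on context. Tie1 is a related receptor that pairs with Tek, and Ptprb (VE-PTP) is an endothelial phosphatase that removes phosphate from Tek. VEGF ligands act on other receptor kinases of the endothelium, among them Kdr (VEGFR2), the main signalling receptor for Vegfa, and Flt1 (VEGFR1), which binds Vegfa and Vegfb tightly and limits how much Vegfa reaches Kdr. Vegfc binds Flt4 and Kdr and is known for its part in lymphatic and coronary vessel growth.

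Deposited counts summed to 12127026 to 17184662 in Wnt GOF libraries and 10130088 to 17526325 in control libraries, and 14774 genes passed the filter on low counts. All 10 members passed it, with 31 to 109 reads for Angpt2 and between 107 and 3173 reads per library for the others. The Wnt target Notum was at 15.1 ± 7.82 CPM (counts scaled to a common library size) in Wnt GOF libraries and 0.516 ± 0.304 CPM in control libraries, and Axin2 at 18.3 ± 8.18 CPM in Wnt GOF libraries and 2.97 ± 1.09 CPM in control libraries (mean ± SD, n = 6 each). The library labelled Wnt GOF replicate 5 stood apart at these targets, with 1.18 CPM of Notum, just above the control range of 0.115 to 0.874 CPM, and 3.77 CPM of Axin2, inside the control range of 1.39 to 4.13 CPM. The other Wnt GOF libraries had at least 12.9 CPM of each, and values without replicate 5 are given below for Angpt1, Angpt2 and Ptprb. Clustering of the libraries' deviations from their group means was cut at 3 sets, a number that was a setting and not a result. Each set came out with 4 libraries, 2 Wnt GOF and 2 control. Set 1 held Wnt GOF replicates 1 and 2 with control replicates 2 and 3, set 2 held Wnt GOF replicates 3 and 4 with control replicates 4 and 5, and set 3 held Wnt GOF replicates 5 and 6 with control replicates 1 and 6. Within 3 pairs the libraries were far more alike than within any other pair of one genotype, namely Wnt GOF replicates 1 and 2, Wnt GOF replicates 3 and 4, and control replicates 2 and 3. Their mean chi-square per gene was 3.11 to 3.37, against 13.0 for the next pair, and whether they are separate samples cannot be told from the labels. In set 1 the comparison may therefore be of 1 sample with 1. The labels give no batch that these sets could be named for, and results are given within them below where they bear on a member.

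Angpt1 was the only member that passed the test over all genes, and it rose in the Wnt GOF ventricles. Its lowest, median and highest values were 129.0, 144.6 and 186.0 CPM in Wnt GOF libraries, against 79.7, 97.3 and 108.4 CPM in control libraries. The lowest Wnt GOF library thus lay above the highest control library, and Wnt GOF replicates 1 and 2 stood highest. Replicate 5, lowest of the Wnt GOF libraries in Notum and Axin2, had 130.2 CPM of Angpt1. Replicates 3 and 4, highest in Notum and Axin2, had 136.7 and 129.0 CPM of Angpt1. The Wnt target Nkd1 was also highest in replicates 3 and 4, with 30.0 and 25.4 CPM. Rnf43, another Wnt target, had a different order. It had 3.58, 3.40 and 3.26 CPM in replicates 2, 6 and 1, against 2.38 and 1.53 CPM in replicates 3 and 4. How Angpt1 followed the Wnt targets from library to library was not tested. The mean of Angpt1 was 152.6 ± 25.5 CPM in Wnt GOF libraries and 96.7 ± 10.9 CPM in control libraries (SD, n = 6 each). Its log2 fold change was 0.66 ± 0.108 (SE), or 1.58-fold (edgeR quasi-likelihood test, Benjamini-Hochberg adjusted p = 0.0145 over all tested genes). Called members numbered 1 of 10, where 0.501% of all tested genes were called and 0.433% were called as higher. Members whose groups did not overlap also numbered 1 of 10, where 0.460% of all tested genes did not overlap. In the authors' deposited table, Angpt1 has a log2 fold change of 0.645 with an adjusted p of 0.0343, and 0.130% of its genes have an adjusted p under 0.05.

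The Angpt1 difference was present in each of the 3 library sets but differed in size. It was 1.89-fold in set 1, 1.55-fold in set 2 and 1.32-fold in set 3, and within each set both Wnt GOF libraries lay above both control libraries. The log2 fold change stayed between 0.59 and 0.70 when any single library was left out, with adjusted p-values of 0.00243 to 0.0363 in edgeR. It was 0.70 (edgeR adjusted p = 0.00243) without Wnt GOF replicate 5. For a library of the 3 most similar pairs, Wnt GOF replicates 1 and 2 included, its near match stayed in the fit. Leaving out such a library can therefore say little about how far the call rests on its pair. The call was lost in limma-voom (log2 fold change 0.65, adjusted p = 0.0504), which called 3 higher and 3 lower genes in all and 0 of the Wnt targets, and with the reads of the 3 most similar pairs of libraries added together, pair by pair (log2 fold change 0.63, edgeR adjusted p = 0.208, in a fit that called 0.00662% of tested genes). In GENCODE M21, 14.2% of the Angpt1 exon length is shared with Gm17473 on the opposite strand. Gm17473 itself had 15 to 37 reads in Wnt GOF libraries and 13 to 38 reads in control libraries, and the strand setting of the counting is not given in the sources used here.

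**Figure D1:**
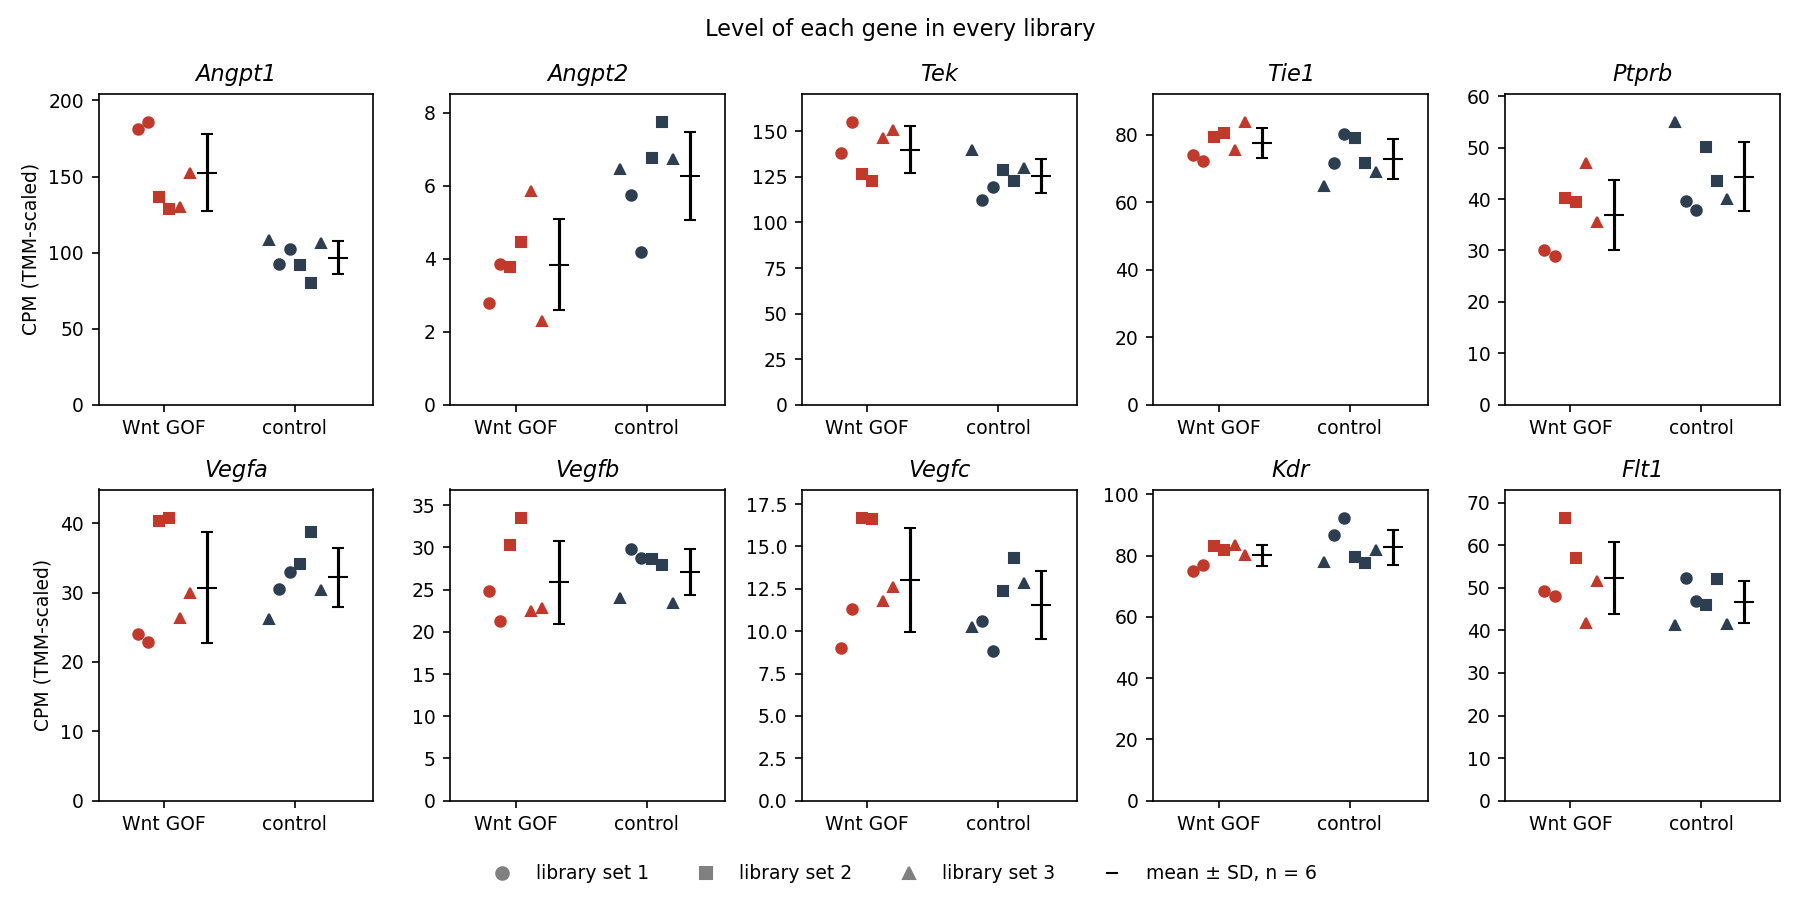
Level of each of the 10 genes in CPM (y axis, linear from 0) in every Wnt GOF library (red, left) and control library (dark, right). Marker shapes give the 3 library sets, and bars are mean ± SD of 6 libraries. Angpt1 is the only gene whose groups do not overlap, with 129.0 to 186.0 CPM in Wnt GOF libraries and 79.7 to 108.4 CPM in control libraries.

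Angpt2, the other angiopoietin, was low in all libraries. It ranged over 2.29, 3.83 and 5.85 CPM (lowest, median and highest) in Wnt GOF libraries, against 4.19, 6.60 and 7.76 CPM in control libraries. Wnt GOF replicate 6 was lowest and Wnt GOF replicate 5 highest in their group, and 4 of 6 Wnt GOF libraries lay below every control library. The log2 fold change was -0.70 ± 0.212 (SE), with a 95% interval of -1.15 to -0.25, and it did not pass the test over all genes (edgeR adjusted p = 0.284). Without Wnt GOF replicate 5 it was -0.86 (edgeR adjusted p = 0.0575). Within the library sets the Wnt GOF mean was 0.67, 0.568 and 0.616 times the control mean in sets 1, 2 and 3, and Angpt2 was the only member with both Wnt GOF libraries below both control libraries in every set. With the sets as a block the log2 fold change was -0.68 (edgeR adjusted p = 0.0536), in a fit that called 2.00% of tested genes. The sets were found in these same libraries, so p-values with this block can be too small. In the authors' deposited table Angpt2 has a log2 fold change of -0.713 with an adjusted p of 0.353, and the other 8 members lie between -0.27 and 0.166 with adjusted p-values from 0.832 to 0.981. In the genome Angpt2 lies within Mcph1, on the opposite strand and with no shared exon bases in GENCODE M21, and Mcph1 had a log2 fold change of -0.01.

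Read counts of 2 genes in the same library can be set against each other without any scaling between libraries. Per 100 Angpt1 reads there were 1.50 to 4.49 Angpt2 reads (median 2.42) in Wnt GOF libraries and 4.10 to 9.73 (median 6.29) in control libraries. These ranges met through Wnt GOF replicate 5 and control replicate 3, and the other libraries lay apart by group. Per 100 reads of the receptor Tek there were 89.1 to 131.2 Angpt1 reads (median 106.3) in Wnt GOF libraries and 64.9 to 85.7 (median 79.7) in control libraries, with no overlap. Per 100 Tek reads there were 18.7 to 32.2 reads of Ptprb (median 27.6) in Wnt GOF libraries, against 30.9 to 39.4 (median 35.3) in control libraries, and these groups overlapped. The pairs of genes were picked with their levels known, and the ratios carry no test.

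**Figure D2:**
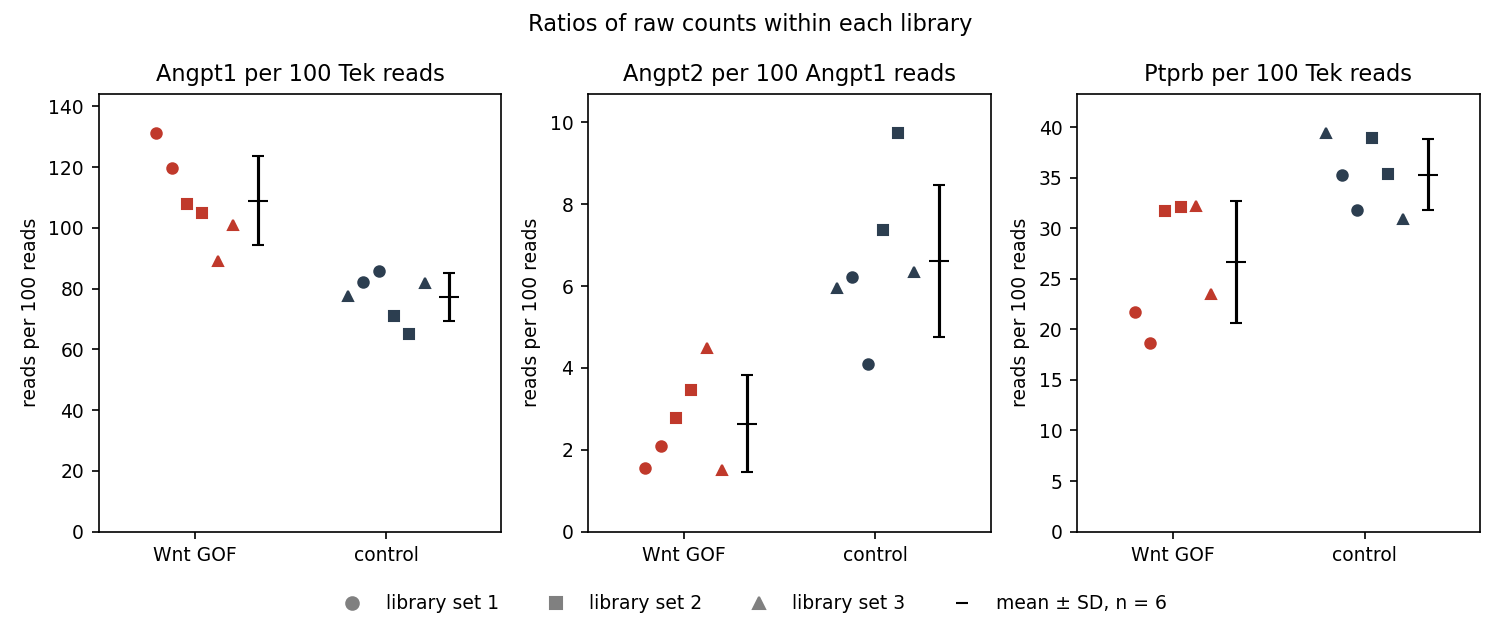
Reads of one gene per 100 reads of another within each library (y axis, linear from 0), for Angpt1 over Tek, Angpt2 over Angpt1 and Ptprb over Tek, with Wnt GOF libraries on the left and control libraries on the right. Marker shapes give the library sets and bars are mean ± SD of 6 libraries. For Angpt1 over Tek the lowest Wnt GOF library is at 89.1 and the highest control library at 85.7.

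The receptors Tek and Tie1 did not pass the test. Tek ranged over 123.0, 142.1 and 155.3 CPM (lowest, median and highest) in Wnt GOF libraries and 112.3, 125.8 and 139.7 CPM in control libraries. Of the Wnt GOF libraries, 3 lay above every control library and the others within the control range. The log2 fold change of Tek was 0.16, with a 95% interval of -0.0035 to 0.32 (edgeR adjusted p = 0.809), and in set 2 the Wnt GOF mean was 0.993 times the control mean. Tie1 was at 77.6 ± 4.42 CPM in Wnt GOF libraries and 72.8 ± 5.92 CPM in control libraries, a log2 fold change of 0.09 with a 95% interval of -0.06 to 0.24. Ptprb, the phosphatase of this receptor pair, ranged over 29.0, 37.5 and 47.1 CPM in Wnt GOF libraries and 38.0, 41.8 and 55.0 CPM in control libraries. Wnt GOF replicates 1 and 2 were the lowest of all libraries for Ptprb, and 3 of 6 Wnt GOF libraries lay below every control library. Its log2 fold change was -0.27 ± 0.125 (SE), with a 95% interval of -0.53 to 0.00013 (edgeR adjusted p = 0.793), and it was -0.35 without Wnt GOF replicate 5 (adjusted p = 0.334). Within the sets the Wnt GOF mean of Ptprb was 0.762, 0.852 and 0.868 times the control mean in sets 1, 2 and 3.

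The promoter windows of these 2 receptors are shown because the transcription factors of the Wnt pathway, TCF and LEF, bind sequences with the core CTTTG, and the receptor genes differ in whether the window holds it. The sequences are the 250 bases before the RefSeq start, from RefSeq on GRCm38.p6, 5′ to 3′ on the strand of the gene. Capitals mark CTTTG or its reverse complement CAAAG. The Tek window is chr4:94739039-94739288 on the plus strand and the Tie1 window chr4:118489850-118490099 on the minus strand.
Tek: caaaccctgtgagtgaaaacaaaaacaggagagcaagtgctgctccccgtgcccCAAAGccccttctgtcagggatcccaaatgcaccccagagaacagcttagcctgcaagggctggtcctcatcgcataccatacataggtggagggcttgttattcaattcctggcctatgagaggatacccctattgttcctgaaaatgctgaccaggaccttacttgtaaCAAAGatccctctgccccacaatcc
Tie1: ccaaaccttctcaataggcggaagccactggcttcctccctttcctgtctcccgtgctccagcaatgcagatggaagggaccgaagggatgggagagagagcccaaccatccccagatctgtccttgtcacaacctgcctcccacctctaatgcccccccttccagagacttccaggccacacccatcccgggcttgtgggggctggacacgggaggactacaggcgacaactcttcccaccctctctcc
The Tek window holds 2 matches and the Tie1 window 0, both strands searched. The core also stands 2 times in 1 of the Vegfa windows, chr17:46025164-46025413 on the minus strand. That window lies downstream of the other Vegfa start, inside the gene. The window of that other start (chr17:46032378-46032627) holds 0 matches. The Vegfc window holds 1 match, and the windows of Vegfb, Kdr and Flt1 hold 0. The longer TCF/LEF sequence CTTTGAT, held by 3.21% of all windows, is in 0 of the members' windows. Of all 32851 windows of this length 48.6% hold at least 1 match, so a match is common and is a description of these letters only. Windows were at hand for 7 of the 10 members, 8 windows in all since Vegfa has 2, and Angpt1, Angpt2 and Ptprb have none in the table.

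No VEGF ligand passed the test over all genes. Vegfa, the main growth factor for embryonic vessels and a target of the hypoxia factor Hif1a, ranged over 22.8, 28.1 and 40.8 CPM (lowest, median and highest) in Wnt GOF libraries and 26.2, 31.8 and 38.8 CPM in control libraries. The Wnt GOF libraries thus spread to both sides of the control range, with replicates 1 and 2 lowest and replicates 3 and 4 highest. Its log2 fold change was -0.07 with a 95% interval of -0.39 to 0.25. Vegfb, which binds Flt1, was at 25.9 ± 4.92 CPM in Wnt GOF libraries and 27.1 ± 2.67 CPM in control libraries, a log2 fold change of -0.07 with an interval of -0.32 to 0.18. Vegfc ranged over 9.01, 12.2 and 16.7 CPM in Wnt GOF libraries and 8.84, 11.5 and 14.3 CPM in control libraries. Only replicates 3 and 4 of the Wnt GOF group lay above the control range for Vegfc, and its log2 fold change was 0.17 with an interval of -0.17 to 0.51. The adjusted p in edgeR was 0.999 for each of the 3 ligands.

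Of the VEGF receptors, Kdr had the smallest spread of all members in either genotype. It was at 80.2 ± 3.48 CPM in Wnt GOF libraries and 82.7 ± 5.80 CPM in control libraries, a coefficient of variation of 4.33% and 7.02%. Its log2 fold change was -0.04 with a 95% interval of -0.18 to 0.09 (edgeR adjusted p = 0.999), which does not reach the value of Angpt1. The interval takes all libraries as independent, which the closely alike pairs may not be, so it can be too narrow. Flt1 ranged over 41.7, 50.4 and 66.4 CPM (lowest, median and highest) in Wnt GOF libraries and 41.2, 46.4 and 52.4 CPM in control libraries. Wnt GOF replicates 3 and 4 were the 2 above the control range, and the log2 fold change was 0.17 with an interval of -0.06 to 0.39 (edgeR adjusted p = 0.988). Counts per gene add up all transcripts, so the soluble form of Flt1 and the splice forms of Vegfa cannot be read from them.

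**Figure D3:**
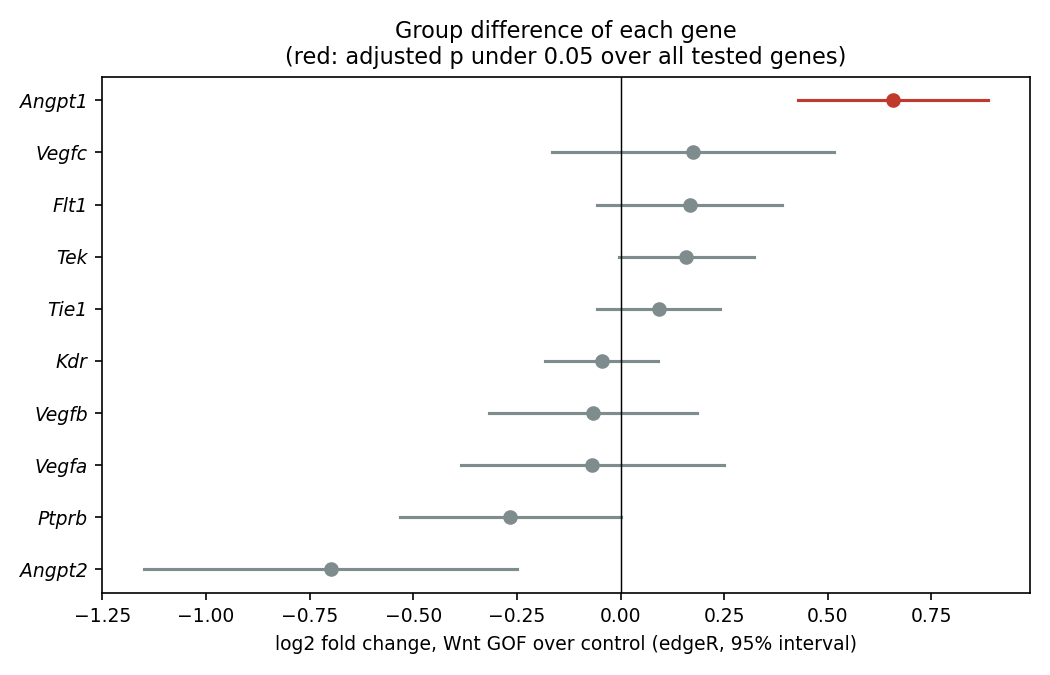
Log2 fold change of Wnt GOF over control for each of the 10 genes (x axis) with its 95% interval from edgeR, ordered by size down the y axis. Angpt1, in red, is the only gene with an adjusted p under 0.05, at 0.66, and Angpt2 has the lowest value, -0.70.

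Divided by exon length, the members spanned more than an order of magnitude. Levels per length are in CPM per kilobase of annotated exon (RPKM), with exon lengths of GENCODE M21, in which all exons of a gene are joined, so genes with long alternative exons come out lower. In Wnt GOF libraries Tek and Angpt1 stood at the top with 29.7 ± 2.78 and 29.3 ± 4.89 RPKM, and in control libraries Tek had 26.6 ± 2.02 and Angpt1 18.6 ± 2.09 RPKM. Tek lay above Angpt1 in 6 of 6 control libraries and in 4 of 6 Wnt GOF libraries. Vegfb followed with 16.1 ± 3.07 RPKM in Wnt GOF libraries and 16.9 ± 1.66 RPKM in control libraries. It overlapped Tie1, at 15.8 ± 0.899 RPKM in Wnt GOF libraries and 14.8 ± 1.20 RPKM in control libraries, and in control libraries also Angpt1. Kdr came next at 8.88 ± 0.385 RPKM in Wnt GOF libraries and 9.16 ± 0.643 RPKM in control libraries, below Tie1 in every library and overlapping Vegfa. Vegfc, Flt1 and Ptprb lay between 2.77 and 5.31 RPKM in mean, each overlapping its neighbour in both groups. Angpt2 was lowest with 1.04 ± 0.341 RPKM in Wnt GOF libraries and 1.70 ± 0.327 RPKM in control libraries, below Ptprb in every library.

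**Figure D4:**
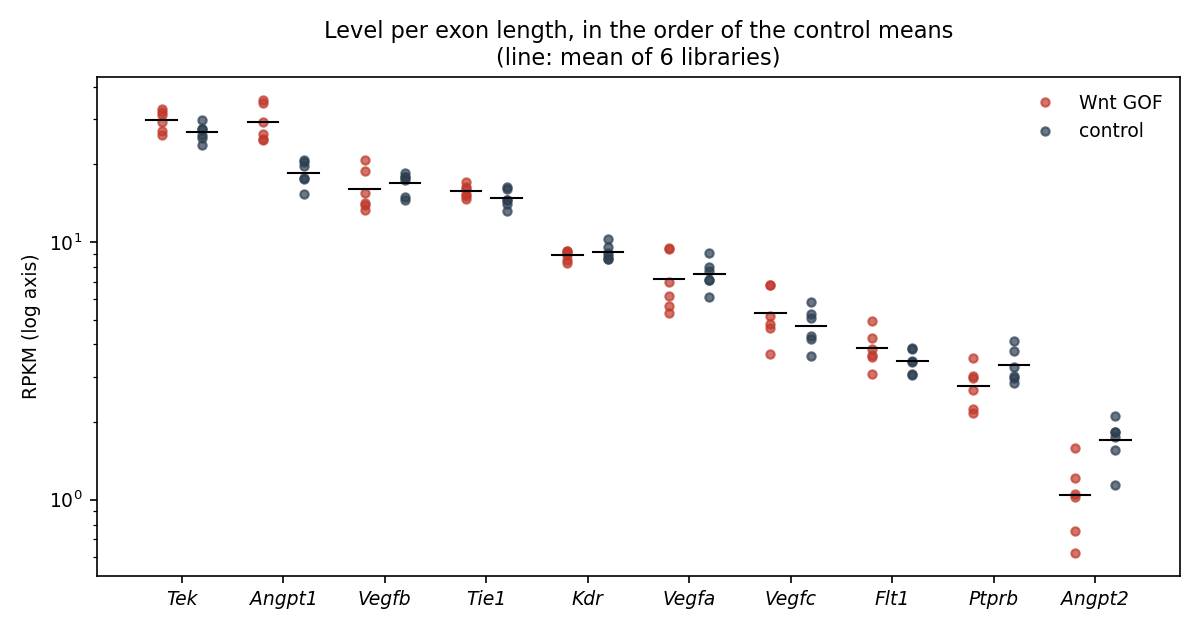
Level per exon length in RPKM (y axis, log scale) of each gene in every Wnt GOF library (red, left) and control library (dark, right), ordered by the control mean, with a line at the mean of 6 libraries. Angpt1 reaches the level of Tek in Wnt GOF libraries, 29.3 against 29.7 RPKM, and stands below it in control libraries, 18.6 against 26.6 RPKM.

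Endothelial and endocardial markers give the setting for the receptors, since in bulk tissue fewer cells of a type and less RNA per cell cannot be told apart. Of 20 markers, among them Pecam1 and Cdh5, 0 were called by edgeR, DESeq2 or limma-voom and 1 had an unadjusted p under 0.05, Npr3, with a log2 fold change of 0.44, where 6.30% of all tested genes had such a p. Their summed level was 1172 to 1387 CPM in Wnt GOF libraries and 1105 to 1345 CPM in control libraries, and the median log2 fold change was 0.05. With their mean log2 level as a covariate, the log2 fold change of Angpt1 was 0.65 (edgeR adjusted p = 0.0229). These markers differed little between the groups, so this covariate could hardly change that value. It also does not cover the myocardium. Cardiomyocyte markers summed to 35390 to 45222 CPM in Wnt GOF libraries and 36152 to 48506 CPM in control libraries, with 0 of 12 called in edgeR, 2 at an unadjusted p under 0.05, and 1, Nppa, called by DESeq2. Blocking on the library sets added edgeR calls of Npr3 and Nppa as higher and Actn2 as lower, in the fit that called 2.00% of tested genes. Of 12 mural markers 1 was called in edgeR, Rgs5, which was lower, while 3 had an unadjusted p under 0.05, all of them lower (Rgs5, Mcam and Notch3). Below 0 lay 9 of the 12 mural markers, which was not particular to this list. The same held for 9 of 12 cardiomyocyte, 8 of 10 epicardial, 7 of 10 erythroid and 8 of 8 cushion mesenchyme markers. Endothelial and endocardial markers had 7 of 20 below 0, and macrophage and leukocyte markers 2 of 10. The mural list summed to 1881 to 2118 CPM in Wnt GOF libraries and 1971 to 2401 CPM in control libraries. Most of this sum was Acta2, with a mean of 1123 CPM in Wnt GOF libraries and 1200 CPM in control libraries. The sum therefore says little about the other mural markers. Macrophage and leukocyte markers summed to 75.9 to 130.0 CPM in Wnt GOF libraries and 72.1 to 100.5 CPM in control libraries, with 0 of 10 called by edgeR or DESeq2 and 5 at an unadjusted p under 0.05, all of them above 0, again beside 6.30% over all tested genes. Epicardial (10), erythroid (10) and cushion mesenchyme (8) markers had 0 calls in edgeR or DESeq2 and 0 at an unadjusted p under 0.05. The part of the mural and macrophage markers in the differences of Angpt1 and Angpt2 was not tested.

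Of 8 tested ligands, receptors and co-receptors outside the list, 0 were called in either direction by edgeR, DESeq2 or limma-voom. In edgeR 2 had an unadjusted p under 0.05, where 6.30% of all tested genes did. The median log2 fold change of the 8 was -0.05, against 0.00 over all tested genes. The 2 with the lowest p were Svep1, an extracellular matrix protein that binds the receptor Tie1, and Pgf, a ligand of Flt1. Svep1 had 12.4 ± 2.24 CPM in Wnt GOF libraries and 9.75 ± 0.965 CPM in control libraries, and Pgf 9.23 ± 1.78 CPM in Wnt GOF libraries and 7.43 ± 0.902 CPM in control libraries (edgeR adjusted p = 0.548 and 0.735). Nrp1, a co-receptor for Vegfa, was at 489.8 CPM in both groups. Flt4, the receptor of Vegfc, had a log2 fold change of -0.11. Angpt4 had at most 7 reads in a library and was not tested.

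Among 21 tested signalling proteins below these receptors, 0 were called by edgeR, DESeq2 or limma-voom. In edgeR 2 had an unadjusted p under 0.05, where 6.30% of all tested genes did. The median difference of the 21 was 0.02 on the log2 scale. Dok2, an adaptor that docks on activated Tek, had the lowest p, with 2.96 to 3.99 CPM in Wnt GOF libraries and 1.91 to 2.47 CPM in control libraries. Its groups did not overlap, as for 0.460% of all tested genes. The log2 fold change of 0.56 ± 0.153 (SE) missed the threshold (edgeR adjusted p = 0.204), and it rests on 23 to 54 reads per library. Macrophage and leukocyte markers had a median log2 fold change of 0.39 in the same libraries. Which cells the Dok2 reads come from was not tested, so they cannot be read as a change below Tek. Tnip2, which restrains NF-kappaB downstream of Tek, was at 0.29 on the log2 scale (edgeR adjusted p = 0.713).

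Of 19 tested genes known to respond to VEGF or angiopoietin signalling in endothelial cells, 0 were called in edgeR and 14 lay below 0. An unadjusted p under 0.05 was found for 4, where 6.30% of all tested genes had one. In bulk tissue the reads of these genes need not come from endothelial cells. Hey1, a Notch target of arterial and endocardial cells, had 8.06 ± 0.832 CPM in Wnt GOF libraries and 11.6 ± 2.35 CPM in control libraries (edgeR adjusted p = 0.186). Esm1, a secreted proteoglycan of sprouting endothelial tips, was low, at 1.81 ± 0.747 CPM in Wnt GOF libraries and 3.57 ± 1.44 CPM in control libraries (edgeR adjusted p = 0.298). DESeq2, which called 1.08% of tested genes, called Hey1 (adjusted p = 0.0415), and limma-voom called 0 of this list. Blocking on the library sets gave 4 edgeR calls in the list, all lower, namely Hey1 (adjusted p = 0.032), Esm1 (0.0336), Rcan1 (0.00447), an inhibitor of calcineurin induced by VEGF, and Igfbp3. That fit called 2.00% of all tested genes, and its p-values can be too small since the sets were found in these data. Of the 12 genes of hypoxia sensing and response, 0 were called by edgeR, DESeq2 or limma-voom, 1 (Bnip3) was called as lower by edgeR with the block, 1 had an unadjusted p under 0.05, 10 lay below 0 and the median log2 fold change was -0.15. Adm, a vasoactive peptide induced by hypoxia, and Pdk1, a kinase that limits pyruvate entry into mitochondria, had the lowest p, with log2 fold changes of -0.35 and -0.21 (edgeR adjusted p = 0.709 and 0.886). Hif1a itself was at -0.04.

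The genes whose library-to-library pattern was most like that of a member were sought among 10604 genes by the correlation of log2 CPM deviations from the group means over the 12 libraries. These deviations share the library sets, so the values describe these libraries only. For Angpt1 the nearest genes were Rab31, Lrrc28 and Nedd1 (r from 0.91 to 0.95), for Angpt2 Ncoa7, Steap2 and Ell2 (0.86 to 0.89), and for Tek Zfp647, Fblim1 and Ccrl2 (0.90 to 0.96). For Kdr they were Cep63, Adam15 and Pou2f1 (0.87 each), and for Vegfa Nufip2, Rtn4 and Ppp2r5e (0.96 to 0.97). Of these 15 genes Ccrl2 had the lowest adjusted p for the difference between the genotypes, 0.0551 in edgeR.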

How the data were processed

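Bulk RNA-seq libraries of embryonic day 12.5 ventricles (6 Wnt GOF, 6 control) were analysed from whole-number read counts per gene as deposited by the authors. Subread, featureCounts and edgeR are named in the submitters' processing notes; genome build, annotation, versions and strand setting were not given in the sources used here. A table of the authors' own comparison was deposited with log2 fold changes and p-values, raw and adjusted, per the file headers; its 12 columns of values per library were not used. Repeated rows of a gene (622) were left out.

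The fit used edgeR 4.0.16 in R 4.3.3, with filterByExpr (minimum count 10), TMM scaling (trimmed mean of M values), and the robust quasi-likelihood test on group alone. Benjamini-Hochberg adjustment ran over all 14774 tested genes, with calls under 0.05. CPM use TMM-scaled library sizes, and SE and 95% intervals come from the F statistic. The test was run on simulated counts drawn independently for each library. These lack the library sets and the closely alike pairs of the data, so the run does not bear on either. Exon lengths came from GENCODE M21 and promoter windows from RefSeq.

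Figf is the symbol of Vegfd in the table. Members and gene lists were chosen with earlier results of these data known. Named genes are the members, the 2 lowest p of each pathway list with any called, the 3 genes most like Angpt1, Angpt2, Tek, Kdr and Vegfa, and Axin2 and Notum. Nrp1, Flt4, Angpt4, Hif1a, Npr3, Rgs5, Mcam, Notch3, Acta2, Rcan1, Igfbp3, Bnip3, Nppa, Actn2, Nkd1, Rnf43, Gm17473 and Mcph1 were added after their values were seen. Replicate numbers shared between genotypes did not pair libraries (correlations of -0.377 to 0.463). Alternatives were DESeq2 1.42.0, limma-voom (limma 3.58.1), other scalings and filters, blocks, an endothelial covariate, summed closest pairs, haemoglobin genes left out and each library left out.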

Additional observations from a re-analysis of the deposited data

How the results depend on the processing

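Of 240 alternative values of the members' log2 fold changes, 237 kept their direction and side of the threshold. Most of these values belong to the 9 members that were not called, and 0 of theirs passed the threshold. Only the 24 values of Angpt1 could lose a call, and 22 kept it. Angpt1 lost its call in limma-voom and with the closest pairs summed, and Vegfa ranged from -0.17 to 0.0081 with 1 library left out, turning sign without Wnt GOF replicate 2 (edgeR adjusted p = 0.999); the cause was not tested. The members called as higher numbered 1, and 0 in limma-voom and with closest pairs summed; 0 members were called as lower in any of the 24 alternatives, with 2 of 10 members at an unadjusted p under 0.05 in edgeR, where 6.30% of all tested genes were. The replicate block kept Angpt1 as the 1 member called and gave 47 higher and 8 lower genes in all, but the numbers do not pair the libraries. Over all genes, 64 were higher and 10 lower. Blocking on library sets gave 195 and 100, and the counts were 0 and 1 with closest pairs summed, 135 and 25 in DESeq2 and 3 and 3 in limma-voom, and 97 were higher with no count filter. Leaving out 1 library gave 34 to 149 higher and 4 to 28 lower genes, the most without Wnt GOF replicate 5. At 31 to 109 reads per library, Angpt2 carries the largest counting error of the members.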

Other observations

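Vegfa, Vegfb and Kdr followed the library sets in ways that the comparison of all 12 libraries does not show. In set 1 the Wnt GOF mean was 0.737 times the control mean for Vegfa, 0.788 times for Vegfb and 0.849 times for Kdr, with both Wnt GOF libraries below both control libraries for each gene. In set 2 the Wnt GOF mean was 1.11-fold for Vegfa, 1.13-fold for Vegfb and 1.05-fold for Kdr, with both Wnt GOF libraries above both control libraries. In set 3 the values were 0.993, 0.952 and 1.03 times the control mean. Both Wnt GOF libraries of set 3 lay below both control libraries for Vegfb, while Vegfa and Kdr overlapped. Flt1 and Vegfc were likewise highest in set 2, at 1.26-fold and 1.25-fold. Each set holds 2 libraries of each genotype and was found in these data, and the difference between sets was not tested. Both genotypes of set 1 and the Wnt GOF side of set 2 are pairs of closely alike libraries. Each such pair may be 1 sample, so agreement within it need not be replication.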
